A study of Oikopleura dioica with 14 samples.

Results

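Wild-type development of the planktonic tunicate Oikopleura dioica was followed over a short window, from 6 to 8 hours post fertilization (hpf). The window is covered by 4 of the 14 libraries of the series, namely the 2 wild-type pools at 6 hpf and the 2 wild-type pools at 8 hpf. The groups were taken from the sample titles and joined across the stage tables by gene identifier. The wild-type animals carried both intact copies of Pax37b (Pax37b+/+), and their parents were heterozygous (Pax37b+/-), so that mutant animals (Pax37b-/-) from such crosses could serve as a second set of libraries. Each animal was genotyped from part of its own lysate, and animals of one genotype were pooled whole before RNA extraction. The number of animals per pool is not stated, and the labels call the pools biological replicates without saying whether each came from its own cross. The p-values below therefore measure the spread between these pools. The other libraries used here are 2 mutant pools at 4 hpf, 3 at 6 hpf and 3 at 8 hpf, which the wild-type comparison does not use, and 2 wild-type pools at 4 hpf.

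Oikopleura dioica keeps a tadpole-like body of trunk and tail throughout life and lives inside a secreted house used for filter feeding. In the hours after hatching the organs of the trunk take shape, and the trunk epithelium becomes the oikoplastic epithelium, whose fields of cells secrete the house. The Fol territory named in the series title is one of these fields. Pax37b encodes a paired-box transcription factor, and its relatives in other chordates act in the dorsal nervous system and at its borders. Many genes of this species lie in operons, and their transcripts receive a spliced leader by trans-splicing.

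The tables list 17212 gene identifiers, and 0 of them matched any identifier of the 17178 genes in the RefSeq table of assembly OKI2018_I68_1.0. Genes are therefore given by identifier without name, position or function, and whole-animal identity could not be checked on marker genes. The 4 libraries were sequenced to similar depth, with 15236991 and 14043388 counts at 6 hpf and 15682925 and 14936236 counts at 8 hpf. The wild-type libraries at 4 hpf were much smaller, with 2803712 and 3136796 counts, and 8225 and 7451 identifiers had no count in them. One of the 8 hpf columns carries a number that no title has, and this library is called the unnumbered one. Because whole animals were pooled, fewer cells of a type and less RNA per cell cannot be told apart.

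In each of the 4 wild-type libraries at 6 and 8 hpf the identifiers fell into 2 populations, a large one with a handful of counts and a smaller one with far more. Between 30 and 99 counts lay 551 and 398 identifiers at 6 hpf and 540 and 358 at 8 hpf, while 1556 and 2494 identifiers at 6 hpf and 2915 and 2001 at 8 hpf had 1000 counts or more. A level of 100 counts falls between both populations and was used to call a gene abundant in a library. Abundant genes numbered 2168 and 3674 at 6 hpf and 4466 and 2729 at 8 hpf, so the stages overlapped in this number. They held 99.2% to 99.6% of all counts in each of the 4 libraries. Identifiers without a single count numbered 1504 and 3738 at 6 hpf and 2129 and 2731 at 8 hpf, and the 6 hpf values enclosed those at 8 hpf.

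**Figure D1:**
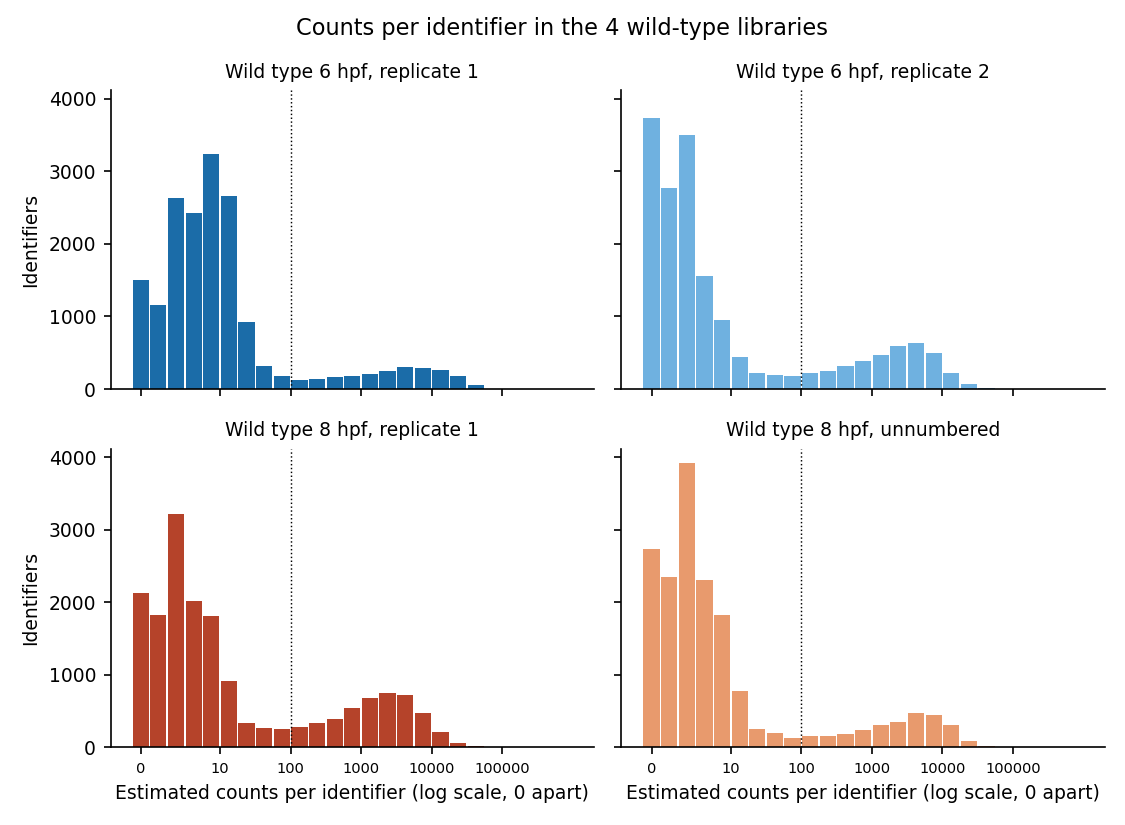
Number of identifiers by estimated counts per identifier (log scale, with 0 counts as the leftmost bar) in each wild-type library. The dotted line marks 100 counts, in the sparse zone between the low and the high population.

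Few genes dominated any library. The 10 most abundant genes took 5.20% and 3.21% of counts at 6 hpf and 6.11% and 7.83% at 8 hpf, higher at 8 hpf in both libraries. The 100 most abundant took 25.4% and 17.5% at 6 hpf against 20.1% and 24.4% at 8 hpf, which overlap. The number of genes that together made up 50% of the counts was 280 and 545 at 6 hpf and 571 and 381 at 8 hpf.

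Replicate pools of one stage shared only part of their abundant genes, and pairs from different stages shared about as many. Of the genes abundant in either library of a pair, 24.7% were abundant in both 6 hpf libraries and 27.7% in both 8 hpf libraries. The pairs of different stages shared 20.6% to 28.4%, the highest of all 6 pairs being 6 hpf replicate 2 with 8 hpf replicate 1, which are the libraries with the most abundant genes. With all 4 libraries thinned to 14043388 counts, the shares were 24.6% and 27.5% within stages and 20.4% to 28.2% across them. Rank correlations over all identifiers were 0.555 and 0.513 within the stages and 0.444 to 0.523 across them, as a description in which each library enters several pairs. Among the most abundant genes, only the 8 hpf pair shared more than every pair of different stages. The lists of the 100 most abundant genes had 38 in common between the 8 hpf libraries, 18 between the 6 hpf libraries and 10 to 18 between libraries of different stages, and 3 genes were on all 4 lists.

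**Figure D2:**
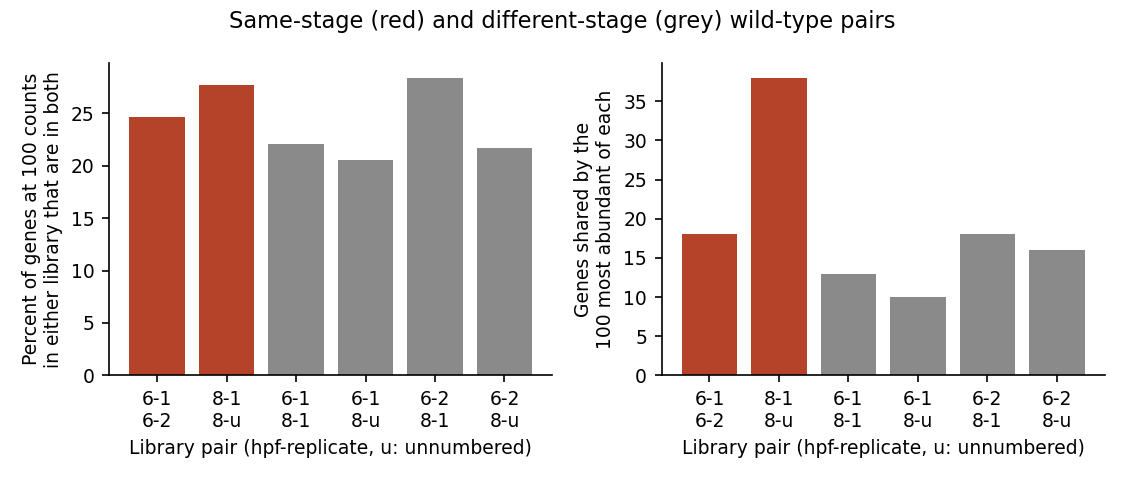
Agreement of the 6 pairs of wild-type libraries, same stage in red and different stages in grey. Left, the percentage of genes at 100 counts in either library that reach it in both, 24.7% and 27.7% within a stage and 20.6% to 28.4% across; right, the genes shared by the lists of the 100 most abundant, where the 8 hpf pair reaches 38.

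Over the 4 libraries, 7685 genes were abundant in at least 1, and 4208 of these (54.8%) in exactly 1. The combination with the most genes was 8 hpf replicate 1 alone, with 1688. Genes abundant in both 8 hpf libraries and neither 6 hpf library numbered 555, and genes abundant in both 6 hpf libraries and neither 8 hpf library numbered 287. For comparison, the 4 combinations of 1 library from each stage held 653, 254, 212 and 107 genes. The combination that matches later onset was thus larger than 3 of these 4, and the one that matches earlier loss larger than the same 3.

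**Figure D3:**
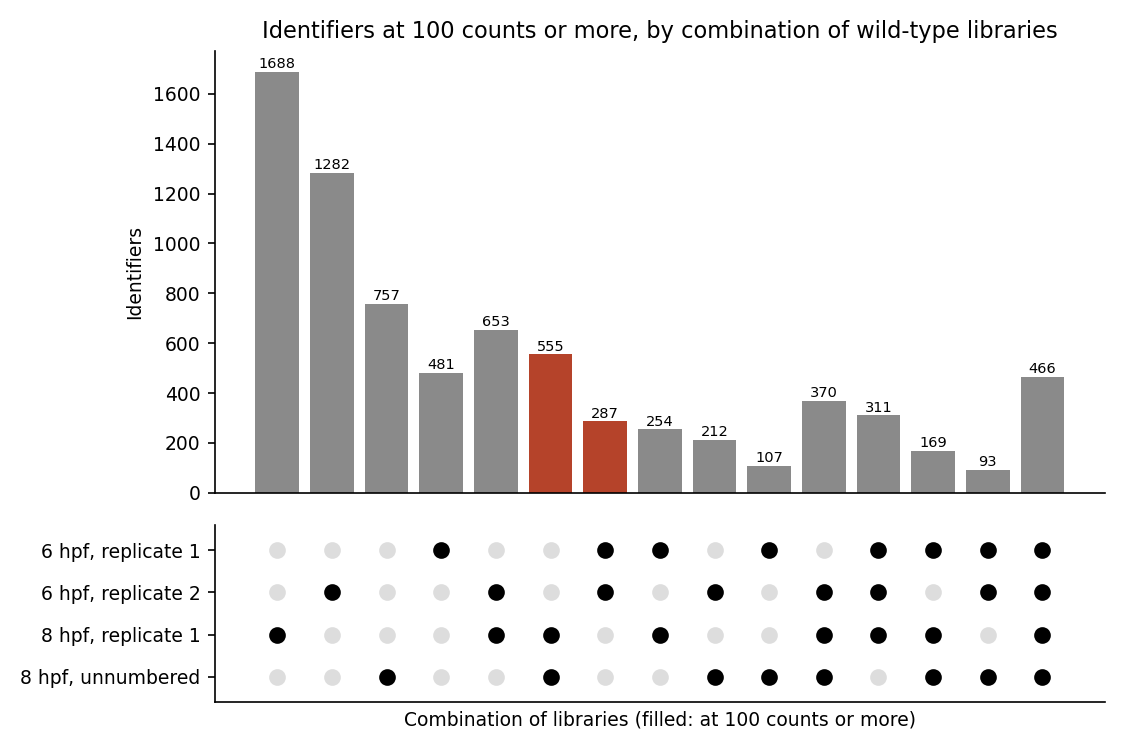
Identifiers at 100 counts or more by the combination of wild-type libraries in which they reach it, shown as filled circles. Red bars are the stage-specific combinations, 555 genes for both 8 hpf libraries and 287 for both 6 hpf libraries; 466 genes reach the level in all 4.

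A total of 466 genes were abundant in all 4 libraries, and these are called the core genes. They took 31.6% and 24.2% of the counts at 6 hpf and 24.8% and 29.5% at 8 hpf, with no separation of the stages. Even so, their levels in CPM (counts per 1000000 counts of the library) varied between replicates about as much as between stages. The median fold difference of these genes was 2.69 between the 6 hpf libraries and 2.25 between the 8 hpf libraries, on the scale of CPM plus 1, against 2.29 to 3.01 across stages. Of the 466, 87 (18.7%) had both 8 hpf libraries above both 6 hpf libraries and 112 (24.0%) had both below. Over all 9334 genes tested these shares were 14.8% and 19.7%. If the libraries were exchangeable, a share of up to 0.333 of genes would separate in one direction or the other. A gap of at least 4-fold between the nearest libraries of the stages was seen for 15 genes higher and 8 lower at 8 hpf. In the mutant libraries 7 of the 15 also had a higher fitted level at 8 hpf, and 7 of the 8 a lower one, where 134 of all 465 core genes in the mutant fit were higher. With a gap of 2-fold or more, 18 of 33 higher genes and 32 of 38 lower genes had the same direction in mutants. The median fitted log2 fold change of the core in wild type was -0.09, that of all tested genes -0.11. None of the 466 passed edgeR's test of all genes, described next, and 8 (1.72%) had an unadjusted p under 0.05, against 16.2% of all genes tested. DESeq2 called 10 of them (2.15%), against 24.8% of the genes it tested, and limma-voom 2 (0.429%), against 4.4%. The core was chosen as abundant in all 4 libraries tested, which excludes any crossing between the low and the high population of counts. The limma-voom calls were mainly such crossings. A lower share of calls in the core is thus built in by the selection and does not show that these genes are stable.

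The change of each gene was then tested with edgeR's quasi-likelihood test, two-sided, in a fit of the 6 wild-type libraries. Those at 4 hpf, with fewer counts, are outside the contrast but enter the estimate of the spread, the low-count filter and the scaling factors. With the 6 and 8 hpf libraries alone, 5924 genes passed the filter. Of 9334 genes, 2 (0.0214%) passed at an adjusted p under 0.05, and 1 rose and 1 fell from 6 to 8 hpf, which is 0.0107% in each direction. The spread was wide, with a biological coefficient of variation of 1.52, and 1511 genes (16.2%) had an unadjusted p under 0.05. Fitted differences were accordingly large without passing. A total of 2274 genes were fitted as more than 16-fold higher and 1830 as more than 16-fold lower at 8 hpf. Without 6 hpf replicate 1, without 6 hpf replicate 2 or without the unnumbered 8 hpf library, 0 genes passed and 1102, 594 and 1559 had an unadjusted p under 0.05. Without 8 hpf replicate 1, 12 passed, and without either 4 hpf library 5 passed.

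GSOIDG00003543001 was the gene that rose. It had 17 counts in each 6 hpf library, or 1.12 and 1.21 CPM, and 50004 and 108080 counts at 8 hpf, or 3188 and 7236 CPM. The replicates lay close at 6 hpf and further apart at 8 hpf, and the stages were far from overlapping. Every gene described by identifier here was chosen by small p among those with non-overlapping wild-type stages. From a mean of 1.16 ± 0.0671 CPM (SD, n = 2) to 5212 ± 2862 CPM (SD, n = 2), the log2 fold change was 12.32 (SE 1.94, edgeR adjusted p = 0.00592). At 4 hpf the gene had 0 counts in both wild-type libraries, which allows a level of up to 0.505 CPM given 3 counts over both libraries. The mutant libraries also had 0 counts at 4 hpf and were high at 8 hpf, with 5561, 2552 and 5686 CPM. At 6 hpf they were uneven, with 0.682, 1227 and 376 CPM, so that 2 of the 3 mutant pools already had a level that neither wild-type pool had.

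GSOIDG00001010001 was the gene that fell. It stood at 6584 and 741 CPM at 6 hpf, where it ranked 3 and 275 among all genes, and at 0.255 and 0.0670 CPM at 8 hpf, which are 4 counts and 1 count. The log2 fold change was -14.59 (SE 2.45, edgeR adjusted p = 0.00735). From the summed counts of 110726 and 5 the level was 23158-fold lower at 8 hpf, with an exact 95% interval of 9923 to 71322 that covers counting error only. At 4 hpf both wild-type libraries held it at a moderate level, 536 and 637 CPM. All 3 mutant libraries had little of it at 8 hpf, with 0.623, 1.06 and 2.37 CPM. At 6 hpf the mutant libraries had 0.0682, 609 and 467 CPM, and replicate 1 was at the level of 8 hpf.

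GSOIDG00017929001 was the most abundant gene in both 8 hpf wild-type libraries. It had 20433 and 30753 CPM at 8 hpf against 257 and 3122 CPM at 6 hpf, where it ranked 990 and 5. Its level at 4 hpf was 457 and 453 CPM. The 6 hpf libraries differed by more from each other, as a ratio, than replicate 2 did from either 8 hpf library, but both 8 hpf libraries were above both. The log2 fold change was 4.14 (SE 0.831, edgeR adjusted p = 0.0760), short of the threshold, and limma-voom gave an adjusted p of 0.0331 and DESeq2 one of 0.0582, within a range of 8.95e-09 to 0.618 over the 15 alternatives. In the mutants it was at 3716, 3226 and 2423 CPM at 6 hpf and at 14065, 5858 and 13411 CPM at 8 hpf, where it ranked 1, 2 and 2. The mutant stages did not overlap either, although their log2 fold change, 1.43 with an SE of 1.68 and an adjusted p of 0.503 by edgeR, was within the spread of that fit.

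GSOIDG00017585001 had the closest replicates of the 4 at 6 hpf. Its levels were 1950 and 1965 CPM at 6 hpf and 0.255 and 0.603 CPM at 8 hpf. Its log2 fold change was -11.94 (SE 2.79) and did not pass edgeR's test (adjusted p = 0.238), while limma-voom (adjusted p = 0.00467) and DESeq2 (adjusted p = 5.04e-07) called it. Over the 15 alternatives its adjusted p ran from 5.04e-07 to 0.531. The summed counts of 57308 and 13 give a level 4610-fold lower at 8 hpf (exact 95% interval 2696 to 8658, counting error only). At 4 hpf the wild-type libraries were at 289 and 260 CPM. The mutant libraries did not show the 6 hpf level, with 0.273, 0.323 and 129 CPM at 6 hpf and 20.2, 1.45 and 5.38 CPM at 8 hpf, and their stages overlapped. The wild-type change differed from the mutant change by a log2 value of -9.46 (SE 3.97), which did not pass the test of the difference (edgeR adjusted p = 0.168).

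**Figure D4:**
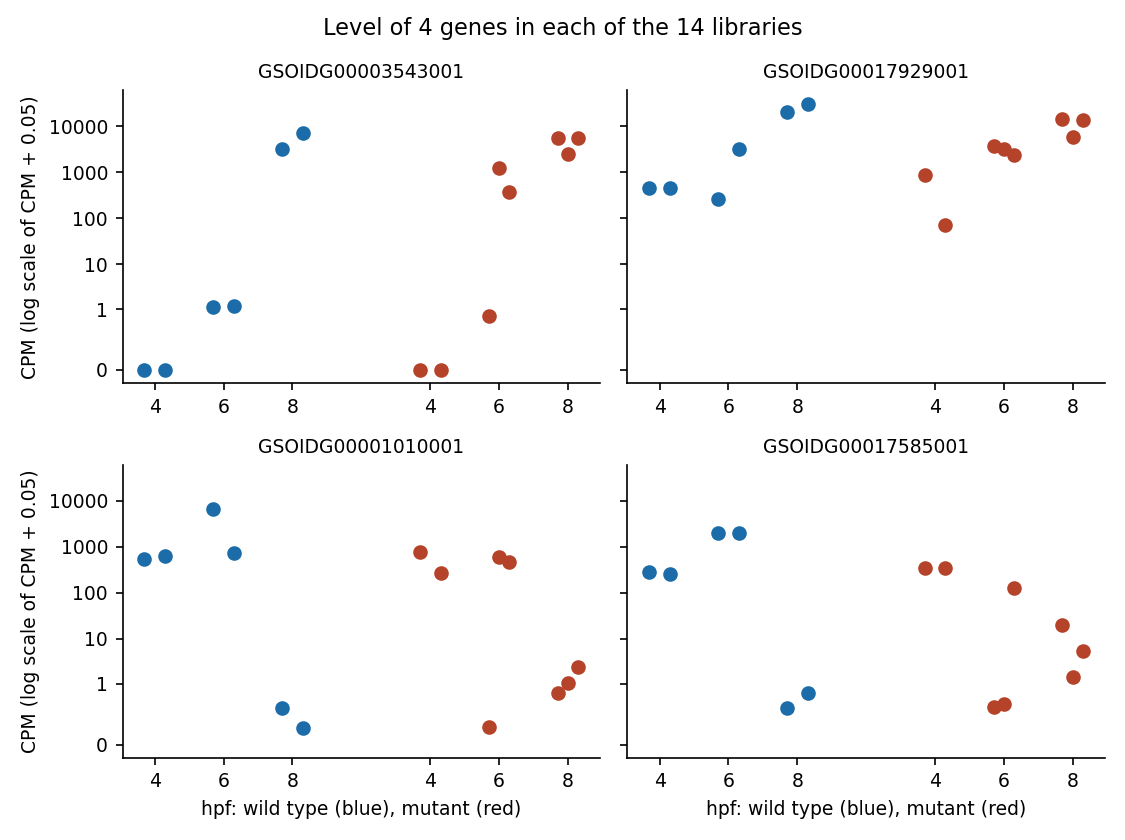
Levels in CPM (log scale of CPM plus 0.05) of the 4 named genes in all 14 libraries, 1 point per library, by stage and genotype. The genes were chosen for wild-type stages that do not overlap, so the upper genes are higher and the lower genes lower at 8 hpf by selection. A level of 0 marks libraries without a count.

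The number of genes called depended on the tool. limma-voom called 411 of the same 9334 genes (4.4%), 258 higher (2.76%) and 153 lower (1.64%) at 8 hpf. DESeq2, given all identifiers, called 4150 of 16733 (24.8%), 2415 higher (14.4%) and 1735 lower (10.4%). Of the limma-voom calls 409 were also DESeq2 calls, which is 99.5% of the limma-voom list and 9.86% of the DESeq2 list. The stages did not overlap for any limma-voom call, whereas 1946 of the DESeq2 calls (46.9%) had overlapping stages. For scale, the stages of most genes overlapped. Of the 16649 identifiers with a count in the 4 libraries, 12.6% were higher and 18.8% lower at 8 hpf without overlap. Of the 9334 genes these shares were 14.8% and 19.7%. Both genes called by edgeR were called by both other tools.

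The genes called higher by limma-voom had a median of 0.394 and 0.142 CPM at 6 hpf and 252 and 346 CPM at 8 hpf. They took 12.5% and 17.5% of all counts at 8 hpf. The genes called lower had medians of 392 and 216 CPM at 6 hpf and 0.255 and 0.201 CPM at 8 hpf, and took 9.13% and 4.91% of counts at 6 hpf. Both lists thus consisted mainly of genes that passed between the high and the low population of counts. At 4 hpf the lower genes had medians of 59.6 and 69.2 CPM and the higher genes of 0.357 and 1.12 CPM, where all identifiers had 0.357 and 0.319 CPM. Of the higher genes 36.4% and 44.6% reached 10 CPM in these libraries, and of the lower genes 72.5% and 75.2%, against 31.6% and 35.7% of all identifiers. The lists hold only genes that passed the low-count filter, as 54.2% of all identifiers did, so these are unlike sets. The smaller 4 hpf libraries also differed in profile, with their most abundant genes at 61374 and 71031 CPM. The highest levels were 7733 and 3925 CPM at 6 hpf and 20433 and 30753 CPM at 8 hpf. Levels in CPM at 4 hpf are therefore not directly comparable with those of the later stages.

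Without any model, 1380 of the 9334 genes tested (14.8%) had both 8 hpf libraries above both 6 hpf libraries in CPM, and 1837 (19.7%) had both below. With 2 libraries against 2, an exact permutation test of a single gene cannot give a two-sided p below 0.333. By the same orderings, a share of up to 0.333 of genes would separate in one direction or the other if the libraries were exchangeable. These numbers of genes alone therefore do not show a change with stage. The balance of directions was not fixed by the data, since 42.9% of these non-overlapping genes were higher at 8 hpf in CPM on library totals, 51.8% under RLE factors and 29.4% under upper-quartile factors. The median log2 fold change of all genes was -0.11 with the TMM factors of the main test, 0.05 with RLE factors and -2.18 with upper-quartile factors.

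A stricter definition took genes that crossed from one population of counts to the other in both libraries, 100 counts or more on one side and under 10 on the other. By this rule 313 genes (1.82% of all identifiers) were switched on and 188 (1.09%) switched off between 6 and 8 hpf. For scale, crossings of the same size were counted between single libraries, where no second library has to show them. Between the 6 hpf replicates 1384 genes crossed in one direction and 819 in the other, and between the 8 hpf libraries 2409 and 899 did. Between single libraries of different stages 721 to 2292 genes crossed in either direction. Without 1 of the 4 libraries the switched-on genes numbered 500 to 1354 and the switched-off genes 271 to 1185. Each of these 8 counts was more than 1.5 times that with all 4 libraries, except the 271 without the unnumbered 8 hpf library. Leaving out a library removes a condition of the rule, so these counts could only stay the same or rise.

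The switched-on genes had a median of 103 and 187 CPM at 8 hpf and together took 6.30% and 9.71% of the counts, against 0.00964% and 0.00500% at 6 hpf. At 4 hpf, 23.3% of them reached 10 CPM in both libraries, against 23.1% of all identifiers. These are unlike sets, since all 313 passed the low-count filter of the wild-type test and 54.2% of all identifiers did. The switched-off genes had medians of 246 and 159 CPM at 6 hpf and took 8.52% and 4.83% of the counts. Of these, 53.2% reached 10 CPM in both 4 hpf libraries, where they took 3.00% and 2.87% of the counts. Of the core genes, 82.4% did. These shares are descriptions, since genes of one library do not vary independently.

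The mutant libraries gave a view of the same genes in pools that had no part in choosing them. The switched-on genes took 0.840%, 1.81% and 1.35% of the counts in the mutants at 6 hpf and 4.08%, 3.68% and 4.96% at 8 hpf. All 3 libraries at 8 hpf were above all 3 at 6 hpf. Without the 10 genes of the set that are most abundant over the series, the shares lay between 0.744% and 1.65% at the earlier stage and between 3.01% and 3.11% at the later one. The switched-off genes moved in the opposite direction in the mutants, with 2.55%, 2.08% and 1.92% of the counts at 6 hpf and 1.62%, 1.70% and 0.575% at 8 hpf, again without overlap. Without the 10 most abundant genes of that set, they took 1.63% to 2.23% and then 0.486% to 1.14%. In the mutants the core genes took 21.7% to 22.9% of counts at the earlier stage and 20.8% to 23.1% at the later one, and these ranges overlap. The mutant pools may come from the same crosses as the wild-type pools, which the labels do not say, so they are other libraries but perhaps not unrelated animals.

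**Figure D5:**
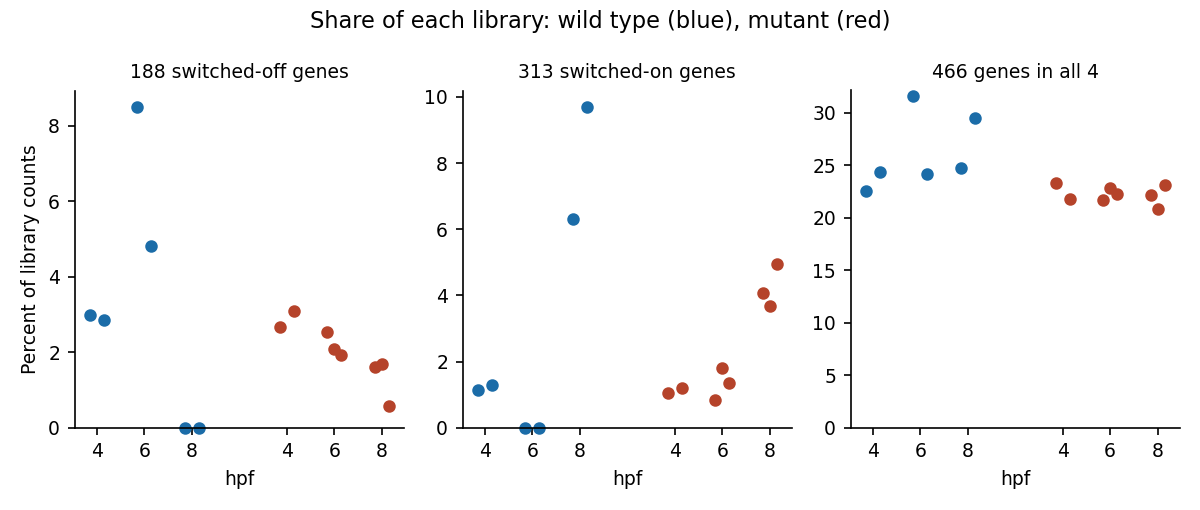
Share of each library's counts, in percent, taken by the genes switched off, switched on and abundant in all 4 wild-type libraries, 1 point per library, wild type in blue and mutants in red. The wild-type points at 6 and 8 hpf chose the sets; the red mutant points fall from 6 to 8 hpf for the first set, rise for the second and overlap for the third.

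These summed shares rested on few genes per mutant library. At 8 hpf, 12, 12 and 6 genes supplied 50% of the counts of the switched-on set in the mutants, against 48 in each wild-type library. Counted gene by gene, 24.3% of the switched-on genes reached 10 CPM in more mutant libraries at 8 than at 6 hpf and 27.5% in fewer. Over all identifiers, of which 54.2% passed the low-count filter of the wild-type test, these shares were 8.39% and 30.9%. Over the core they were 8.37% and 60.9%. Of the switched-off genes 64.4% reached 10 CPM in fewer mutant libraries at 8 hpf and 4.79% in more. Mutant libraries at 8 hpf had fewer abundant genes (783 to 2390) than at 6 hpf (2598 to 4645), and the part of this in the gene counts was not tested.

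The direction of the fitted change was also read in both genotypes, as a description. Of the 8362 genes tested in both genotypes, 46.1% of those higher at 8 hpf in wild type were higher in mutants, and 60.2% of those lower were lower. Among the genes whose wild-type stages did not overlap, the shares were 49.2% of 1199 and 63.7% of 1683. Among the limma-voom calls they were 63.7% of 223 and 76.0% of 146, with median mutant log2 fold changes of 1.66 and -4.53 where the median over all genes tested in both was -1.14. Both edgeR genes had the same direction in mutants. In the mutants alone 0 of 10873 genes passed edgeR's test (0% in either direction), 3933 had an unadjusted p under 0.05, limma-voom called 31 and DESeq2 called 1557.

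The difference between the wild-type and the mutant change was tested directly. None of 12850 genes passed (edgeR, 0%, smallest adjusted p = 0.148), with 2996 at an unadjusted p under 0.05, 53 called by limma-voom and 1538 by DESeq2. For GSOIDG00003543001 the wild-type change exceeded the mutant one by a log2 value of 9.54 (SE 3.25, edgeR adjusted p = 0.148). For GSOIDG00001010001 the difference was -5.80 (SE 3.32, edgeR adjusted p = 0.267). For GSOIDG00017929001 it was 3.06 (SE 2.16, edgeR adjusted p = 0.359), and for this gene all 8 hpf libraries were above all 6 hpf libraries within each genotype.

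The 38 genes shared by the 100 most abundant of both 8 hpf libraries were also read at 6 hpf. They took 10.5% and 13.3% of counts at 8 hpf and 3.32% and 3.05% at 6 hpf. At 6 hpf 24 and 31 of them reached 10 CPM, with medians of 389 and 472 CPM against 1946 and 2020 CPM at 8 hpf. Over 50% of these 38 genes therefore reached 10 CPM in each 6 hpf library, against 12.1% and 20.5% of all identifiers. In the mutants at 8 hpf 13, 9 and 10 of the 38 were among the 100 most abundant, compared with 6, 15 and 10 at 6 hpf. The 18 genes shared by both lists at 6 hpf took 6.01% and 4.02% of counts at that stage and 2.54% and 2.33% at 8 hpf, where 16 and 14 of them still reached 10 CPM. All 18 reached 10 CPM in both 4 hpf libraries. Because these genes were chosen for their abundance at one stage, their higher level at that stage is a description.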

How the data were processed

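Per the labels' protocols, libraries came from polyadenylated RNA of pooled whole animals with a low-input, single-cell kit. Each stage has its own deposited table, in which the values are estimated counts per gene and library, not scaled by depth. The submitters' processing notes name kallisto 0.46.0 and DESeq2. Neither the transcript index nor the annotation release is named in those notes. Values more than 0.01 from a whole number made up 4.22% to 10.8% per library, and all were rounded before testing. Reads divided among near-identical gene copies make those counts uncertain.

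The tables were joined by identifier. The fits used edgeR 4.0.16 (filterByExpr, TMM factors, quasi-likelihood F test, Benjamini-Hochberg adjustment over all genes tested, threshold 0.05), in R 4.3.3, with DESeq2 1.42.0 and limma 3.58.1 as alternatives. Wild-type changes used 6 wild-type libraries, mutant changes 8 mutant libraries, and their difference all 14. Standard errors are the log2 fold change divided by the square root of the F statistic. The edgeR step was run on simulated data with the spread of these data and with a far lower spread. A pass rule was set for the lower spread only, so it does not show the power of the test on these data. CPM used library totals. The chi-square per degree of freedom between replicates was 1128 at 6 hpf and 967 at 8 hpf, so neither pair was a repeat of one library. Without molecular identifiers, amplified reads may repeat 1 molecule, so intervals cover counting error only.

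Of unnamed identifiers, 2 higher and 2 lower are printed, by smallest p among genes at 5 CPM or more whose stages did not overlap. There were 1156 such genes higher and 1288 lower at 8 hpf. Functional and marker gene lists were not run, since no identifier could be paired with a name. The groups, lists and rules were chosen with earlier results of these data known. Summaries and plots used Python 3.11.15, numpy 2.4.6, pandas 2.3.3, scipy 1.17.1 and matplotlib 3.10.9.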

Additional observations from a re-analysis of the deposited data

How the results depend on the processing

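With 2 pools per stage, the wild-type change rests on each library. Against 2 calls, edgeR gave 0 with upper-quartile factors, 0 in 1 fit of all 14 libraries and 0 to 12 when 1 library was left out, limma-voom gave 411 and DESeq2 4150. RLE factors, no low-count filter, a mean of 5 CPM or more and the 6 and 8 hpf libraries alone gave 2 or 3. The upper-quartile sizes of the wild-type libraries differed widely between replicates. In mutants, against 0, upper-quartile factors gave 1587, DESeq2 1557, limma-voom 31 and the 6 and 8 hpf libraries alone 544. For the difference between genotypes, against 0, DESeq2 gave 1538 and limma-voom 53. The 6 and 8 hpf wild-type columns share 1 number. The labels do not say what a replicate number shares, so the numbers were not taken to pair the pools. Deviations of the pools with that number correlated at -0.0294 over genes, which cannot decide whether they are paired. With column numbers as a replicate block in all 14 libraries, wild type gave 0 calls, mutants 0 and the difference 1. The non-overlapping genes higher at 8 hpf (14.8%) became 16.9% with RLE sizes, 8.32% with upper-quartile sizes, 13.9% after thinning, 12.6% unfiltered, 18.0% at 5 CPM or more and 22.7% to 38.8% without 1 library. Those lower (19.7%) became 18.7% with TMM sizes, 15.7% with RLE sizes, 17.8% after thinning, 18.8% unfiltered and 28.9% to 41.0% without 1 library. A rule of 50 counts against under 5 gave 153 genes switched on and 110 off. With 200 counts against under 20 the numbers were 381 and 207, and after thinning 314 and 196. With 10 CPM or more against under 1 CPM they were 367 and 206. Leaving out 1 library gave 500 to 1354 and 271 to 1185. The share of genes with the same direction in mutants (57.7%) was 53.9% with upper-quartile factors, 53.5% over all genes, 59.5% at 5 CPM or more and 54.7% to 57.4% without 1 mutant library. Directions of the 4 named genes, which were chosen for stages that do not overlap in the same libraries, were the same in all 15 alternatives. GSOIDG00003543001 and GSOIDG00001010001 each passed in 9 of 15, GSOIDG00017929001 in 6 and GSOIDG00017585001 in 2. Where a fit without 1 library left a stage with 1 pool, that pool was assumed to vary like the other groups. The shares and switching counts without 1 library, and the sets without their 10 most abundant genes, were chosen after seeing the data. Leaving out a library drops a condition of both rules. By itself this can only keep or raise the non-overlapping shares and the switching counts. The causes were not tested.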

Other observations

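Neighbours in identifier order were compared for their direction of change. Over genes at 5 CPM or more, the change from 6 to 8 hpf had the same sign for 55.8% of 3373 adjacent pairs, with a Pearson correlation of 0.119, while 2937 pairs 100 places apart gave a correlation of 0.00692. Differences between replicates of one stage gave correlations of 0.114 at 6 hpf and 0.130 at 8 hpf for adjacent pairs, one below and one above that of the stage difference, with the same sign in 53.6% and 55.9% of pairs. The correlations are across genes of the same 4 libraries, which are not independent, and whether the identifier order follows the chromosome was not tested.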
